A study of Mus musculus with 16 samples.

Results

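Described here are 10 genes listed as markers of the resident macrophages of adipose tissue, many of them used for macrophages that lie along blood vessels: Cd163, Mrc1, Lyve1, Timd4, Folr2, Cd209f, F13a1, Cbr2, Clec10a and Cd5l. They were found by symbol for the Ensembl IDs of an expression table of 54532 genes, and 10 of 10 were present. Values are FPKM, the fragments of a gene scaled by its length and by the depth of the library. All 10 were among the 13271 genes tested, which had a mean of at least 1 FPKM over the 16 libraries. Timd4, with a mean of 1.02 FPKM, passed only through the vehicle group and was under 1 FPKM in 12 of 16 libraries.

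The tissue was epididymal white fat, a visceral depot, from male C57BL/6 mice with obesity induced by a high-fat diet over 20 weeks. The first cohort, labelled 25 weeks old, had 4 libraries from mice given tubastatin A-HCl, an inhibitor of the histone deacetylase HDAC6, and 4 from mice given vehicle. The second cohort, labelled 28 weeks old and given vehicle, had 4 libraries of an adipose-specific HDAC6 knockout (AdKO) and 4 of adiponectin-Cre controls (AdCre). The question the design poses is how the fat of obese mice differs after HDAC6 is blocked by a drug or deleted in fat. The labels give a global HDAC6 knockout as the genotype of both groups of the first cohort, whereas the design text names no knockout there and gives an age near 28 weeks, so genotype and age in that cohort are uncertain. The adiponectin promoter is active in adipocytes, so macrophages are not the cells that this Cre targets. The labels do not say that each library came from a separate animal, and p-values therefore measure the spread between libraries.

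Depth was 18234386 to 24776803 reads per library, recovered from the steps between FPKM values, and the 10 genes were covered by 7 reads (Timd4 in AdKO replicate 1) to 17029 reads (Mrc1 in AdKO replicate 1). Replicates of a group differed by more than sampling noise in 24 of 24 pairs, with a chi-square of 12.99 to 98.4 per gene. Hdac6, the gene targeted, ranged from 1.41 to 1.78 FPKM with vehicle and from 1.44 to 1.70 with tubastatin, against 2.66 to 4.11 in AdKO and 3.64 to 4.74 in its controls. A level summed over the whole gene carries no information on a deleted exon. AdCre replicates 2 and 3 held epididymal epithelial transcripts, with a summed level of up to 28.5 FPKM over 6 markers against at most 1.75 in vehicle, tubastatin and AdKO libraries, and the main values without both are given below.

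Resident macrophages settle in fat before or independently of obesity and sit beside vessels and between adipocytes, where they take up debris, haemoglobin, iron and dying cells. In obesity they are joined by macrophages derived from monocytes, which gather around dying adipocytes and express lipid-handling genes such as Trem2, Gpnmb and Spp1. The listed genes code mostly for the surface receptors and lectins by which resident cells capture their targets, with a few enzymes and 1 secreted protein.

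The promoters of the 3 genes whose unadjusted p was under 0.05 in a comparison within a cohort are shown first, as the 250 bases before the transcription start given by RefSeq (GRCm38.p6), 5′ to 3′ on the gene's own strand. Timd4 entered that fit only through its high level in vehicle, so its place among the 3 is a choice for display and nothing more. Cd5l lies at chr3:87357631-87357880 on the plus strand, Timd4 at chr11:46810549-46810798 on the plus strand, and the first of 2 starts of F13a1 at chr13:37050245-37050494 on the minus strand. Capitals mark matches, on either strand, to any of 4 short motifs of factors known in macrophages: GAGGAA for PU.1, TGCTGA for MAF factors, AGAACA for the glucocorticoid receptor and, for STAT6, TTC and GAA with any 4 bases between them.
Cd5l: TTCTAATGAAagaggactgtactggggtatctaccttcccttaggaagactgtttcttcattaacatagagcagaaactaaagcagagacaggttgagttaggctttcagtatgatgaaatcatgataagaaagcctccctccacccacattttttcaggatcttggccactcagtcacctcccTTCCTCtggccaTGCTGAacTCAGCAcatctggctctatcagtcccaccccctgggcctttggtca
Timd4: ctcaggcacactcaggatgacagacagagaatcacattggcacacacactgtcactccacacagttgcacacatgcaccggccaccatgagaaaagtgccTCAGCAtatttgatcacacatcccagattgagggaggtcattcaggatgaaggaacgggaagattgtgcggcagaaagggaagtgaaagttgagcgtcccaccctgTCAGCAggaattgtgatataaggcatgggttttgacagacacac
F13a1: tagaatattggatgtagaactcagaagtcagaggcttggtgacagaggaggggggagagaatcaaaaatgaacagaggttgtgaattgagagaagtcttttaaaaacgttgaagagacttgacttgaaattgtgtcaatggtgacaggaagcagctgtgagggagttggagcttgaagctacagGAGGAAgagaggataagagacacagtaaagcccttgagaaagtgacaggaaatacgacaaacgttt

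The Cd5l promoter held 4 matches, 1 to PU.1, 2 to MAF and 1 to STAT6, while Timd4 held 2 to MAF and F13a1 held 1 to PU.1. The table of promoters had entries for 8 of the 10 genes, which gave 10 promoters because Folr2 and F13a1 each have 2 starts. PU.1 letters were found in 4 of these 10 promoters (Cbr2, Cd5l, F13a1 and Mrc1), against 23.3% of all 32851 promoters of the same length. MAF letters were found in 4 of 10 (Cd5l, Timd4 and both starts of Folr2), against 16.1%. Glucocorticoid receptor letters were found in 2 of 10 (Cd163 and Folr2), against 16.1%, and STAT6 letters in 1 of 10 (Cd5l), against 5.9%. A match of letters is a description of the sequence and was not tested for binding.

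Macrophages were plainly present in every library. The 15 general macrophage markers (Adgre1, Csf1r, Cd68, C1qa and others) summed to 3439 to 8876 FPKM. Markers of other cells that share some of the 10 genes were also read, at levels from 0 to above those of some of the 10. Lyve1 is also made by lymphatic endothelium, whose factor Prox1 was at 0.0116 to 0.466 FPKM and whose chemokine Ccl21a was listed at 0 in 16 of 16 libraries, though Flt4 reached 1.49 to 3.34 and Pdpn, which other cells make too, 21.7 to 68.4 FPKM. F13a1 is also made by platelets and monocytes. Of the 10 monocyte markers, Ace was at 34.8 to 52.7 FPKM, Plac8 at 8.34 to 25.8 and Ccr2 at 3.16 to 30.3, and 0 were listed at 0 in any library. Of the 6 platelet markers, Gp1bb was listed at 0 in 16 libraries and Gp6 in 9, while Treml1 reached 0.959 to 4.55 FPKM. Timd4 and Cd5l are also expressed by large macrophages of the peritoneal cavity, whose factor Gata6 (also expressed by mesothelium) was at 2.76 to 8.06 FPKM. Of the other peritoneal markers, Prg4 was at 5.68 to 26.3 FPKM, Icam2 at 5.76 to 11.8 and Alox15 at 0.406 to 7.92, and Rarb was under 1 FPKM in 16 of 16 libraries.

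Mrc1, the mannose receptor, had the highest mean of the 10 genes in each of the 4 groups, at 61.0 FPKM in vehicle, 73.9 in tubastatin, 64.7 in AdCre and 91.3 in AdKO. Clec10a, a lectin for galactose and N-acetylgalactosamine, came next in each group at 44.4 to 68.2 FPKM. Folr2, Cbr2 and F13a1 lay between 22.1 and 40.8 FPKM as group means, and Timd4 was lowest in each group at 0.703 to 1.74 FPKM. The place of Cd5l in this order was lowest in AdCre: it was the sixth in vehicle and tubastatin, the seventh in AdKO and the ninth in AdCre. The spread over libraries also split the list. The highest library exceeded the lowest by 38.4-fold for Cd209f, 33.7-fold for Cd5l, 15.1-fold for Timd4 and 13.95-fold for Lyve1, whereas the other 6 genes spanned 2.99-fold to 3.44-fold.

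**Figure D1:**
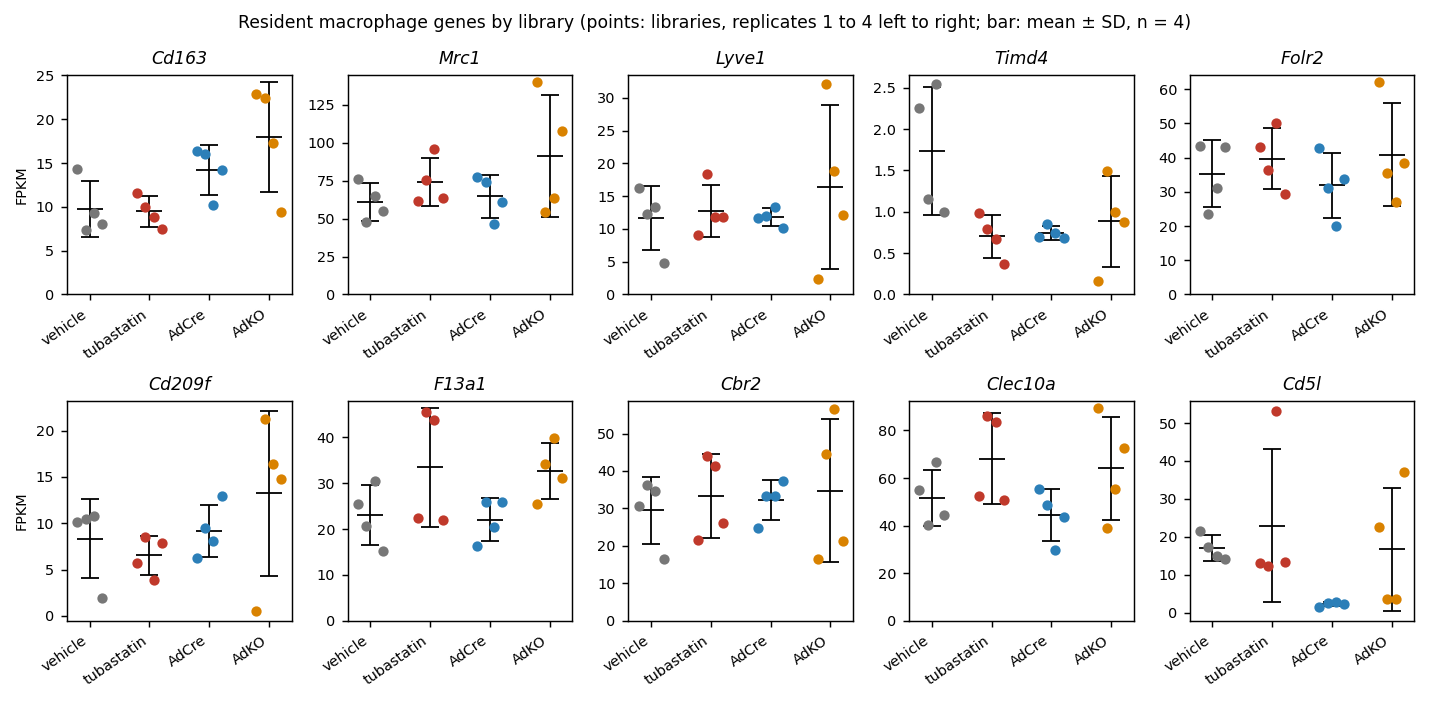
FPKM of each of the 10 genes (vertical axis, linear, its own range per panel) in each of the 16 libraries; points are libraries and bars the mean ± SD of 4, in the order vehicle, tubastatin, AdCre and AdKO. Cd5l sits between 1.58 and 2.88 FPKM in AdCre and from 12.2 FPKM upward in vehicle and tubastatin; in Lyve1, Timd4 and Cd209f the lowest point is AdKO replicate 1.

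Among the scavenger and uptake receptors, Cd163 binds complexes of haemoglobin with haptoglobin. It stood at 14.4, 7.38, 9.34 and 8.02 FPKM in vehicle replicates 1 to 4 and at 11.6, 10.04, 8.84 and 7.43 in tubastatin. In the second cohort it stood at 16.4, 16.01, 10.2 and 14.2 FPKM in AdCre and at 22.9, 22.4, 17.3 and 9.43 in AdKO. The groups overlapped within both cohorts, and AdKO held both the highest libraries and 1 library as low as those of vehicle. The log2 difference, on the scale of log2(FPKM + 1) used throughout, was -0.01 (SE 0.20) for tubastatin against vehicle and 0.27 (SE 0.27) for AdKO against AdCre, and the limma p-values adjusted over the whole table were 0.981 and 0.713.

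Mrc1, which takes up mannosylated glycoproteins and collagen fragments, stood at 76.2, 47.6, 65.0 and 55.2 FPKM in vehicle and at 61.6, 75.2, 95.5 and 63.3 in tubastatin. In AdCre it stood at 77.4, 74.0, 46.2 and 61.2 FPKM and in AdKO at 140, 54.0, 63.7 and 108. The groups overlapped in both cohorts, with AdKO replicates 1 and 4 above the other 14 libraries. The log2 differences were 0.27 (SE 0.18, limma adjusted p = 0.548) for the drug and 0.41 (SE 0.31, adjusted p = 0.625) for the knockout, the latter 0.18 without AdKO replicate 1, 0.26 without AdCre replicate 3 and 0.10 with array weights. Folr2, folate receptor beta, ranged from 23.5 to 43.3 FPKM in vehicle, 29.2 to 49.99 in tubastatin, 19.98 to 42.7 in AdCre and 27.1 to 62.1 in AdKO. Its groups overlapped as well, with log2 differences of 0.18 (SE 0.23) and 0.33 (SE 0.29). The drug value was 0.00551 without vehicle replicate 2, and the knockout value 0.11 without AdKO replicate 1, 0.13 without AdCre replicate 3 and 0.04 without AdCre replicates 2 and 3.

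Lyve1, a hyaluronan receptor of perivascular macrophages and lymphatic vessels, stood at 16.2, 12.2, 13.4 and 4.79 FPKM in vehicle and at 9.02, 18.3, 11.8 and 11.9 in tubastatin. In AdCre the values lay close together, at 11.7, 11.99, 13.35 and 10.1 FPKM, while in AdKO they were 2.30, 32.1, 18.9 and 12.1. AdKO thus held both the lowest library of the 16 (replicate 1) and the highest (replicate 2), and no group stood apart. The log2 differences were 0.19 (SE 0.34) for the drug and 0.03 (SE 0.62) for the knockout, with limma adjusted p-values of 0.838 and 0.989. Without AdKO replicate 1 the knockout difference was 0.69, which did not pass either, and without vehicle replicate 4 the drug difference was -0.15.

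Timd4, the receptor Tim-4 that binds phosphatidylserine on dying cells, stood at 2.26, 1.15, 2.54 and 0.9996 FPKM in vehicle and at 0.984, 0.789, 0.670 and 0.369 in tubastatin. In AdCre it stood at 0.695, 0.855, 0.743 and 0.681 FPKM and in AdKO at 0.169, 1.49, 0.994 and 0.880. The 4 tubastatin libraries lay below the 4 of vehicle, though the nearest pair, 0.984 and 0.9996 FPKM, almost met, while AdKO enclosed the whole range of AdCre. The tubastatin mean was 0.703 ± 0.258 FPKM against 1.74 ± 0.776 in vehicle (SD, n = 4 each), a ratio of 0.404. The log2 difference was -0.65 (SE 0.21), with a two-sided exact permutation p of 0.0286, the smallest that 70 relabelings allow, which uses no filter. Because Timd4 reached the filter only through vehicle, its adjusted p is taken from the limma fit with no filter on low values, where it was 0.530. These levels rest on 46 to 121 reads in vehicle and 16 to 53 in tubastatin, and on the recovered reads, without a pseudocount of 1 FPKM, the log2 difference from limma voom was -1.23.

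The lectins Clec10a and Cd209f also overlapped between groups. Clec10a ranged from 40.3 to 66.5 FPKM in vehicle, 50.8 to 85.9 in tubastatin, 29.7 to 55.3 in AdCre and 39.2 to 89.5 in AdKO. Its log2 differences were 0.38 (SE 0.22, limma adjusted p = 0.507) for the drug and 0.49 (SE 0.28, adjusted p = 0.539) for the knockout. Cd209f, a mouse relative of the lectin DC-SIGN, stood at 10.2, 10.4, 10.8 and 1.92 FPKM in vehicle and at 5.73, 8.56, 3.90 and 7.91 in tubastatin. In AdCre it stood at 6.25, 9.47, 8.05 and 12.9 FPKM and in AdKO at 0.554, 21.3, 16.4 and 14.8. Vehicle replicate 4 and AdKO replicate 1 were far below the other libraries of their groups, and the other 3 AdKO libraries were above each AdCre library. The log2 differences were -0.16 (SE 0.46) and 0.00 (SE 0.79), and leaving out AdKO replicate 1 moved the knockout value to 0.89 and leaving out vehicle replicate 4 the drug value to -0.66, neither of which passed.

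Cd209f belongs to a family of related genes, and how any reads shared among them were handled is not given in the sources used here. Its relatives were low in the same libraries. In AdKO replicate 1, Cd209b was at 0.198, Cd209d at 0.456 and Cd209g at 0.131 FPKM, against 2.46 to 6.24, 4.43 to 15.5 and 1.83 to 3.38 in the other 3 AdKO libraries. In vehicle replicate 4 they were at 0.134, 0.514 and 0.262 FPKM, also the lowest of that group. Over the 16 libraries, each gene centred on its group means, Cd209f had a Pearson r of 0.93 with Cd209g (Spearman rho 0.84), 0.85 with Cd209b (rho 0.73) and 0.84 with Cd209d (rho 0.65), as a description of libraries that share depth and tissue. Without the 2 libraries farthest from the median, r was 0.83, 0.53 and 0.55.

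Of the enzymes, F13a1 codes for the A subunit of coagulation factor XIII, a transglutaminase that macrophages also hold. It stood at 25.5, 20.7, 30.6 and 15.2 FPKM in vehicle and at 22.5, 45.5, 43.8 and 21.9 in tubastatin, in which replicates 2 and 3 were high and the other 2 lay within the vehicle range. In AdCre it stood at 16.2, 25.8, 20.4 and 25.9 FPKM and in AdKO at 25.4, 34.2, 39.9 and 31.2. Only the lowest AdKO library fell within the range of AdCre. The knockout log2 difference was 0.55 (SE 0.18), with an unadjusted limma p of 0.0152, an adjusted p of 0.370 and an exact permutation p of 0.0857. The drug difference was 0.48 (SE 0.30, adjusted p = 0.529). Cbr2, a carbonyl reductase, ranged from 16.6 to 36.2 FPKM in vehicle, 21.6 to 44.1 in tubastatin, 24.8 to 37.4 in AdCre and 16.5 to 56.7 in AdKO, with log2 differences of 0.17 (SE 0.30) and -0.05 (SE 0.37).

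Cd5l, the secreted protein of the list, is known as an inhibitor of macrophage apoptosis that also enters adipocytes and binds fatty acid synthase. It stood at 21.6, 17.3, 14.95 and 14.03 FPKM in vehicle and at 13.1, 12.2, 53.2 and 13.2 in tubastatin. In AdCre it stood at 1.58, 2.42, 2.88 and 2.29 FPKM and in AdKO at 22.6, 3.54, 3.68 and 37.0. Tubastatin replicate 3 alone was high in its group, and the other 3 tubastatin libraries were below the 4 of vehicle. AdCre was low in each library, and AdKO split into replicates 1 and 4, at the level of the first cohort, and replicates 2 and 3, just above AdCre.

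The AdKO mean of Cd5l was 16.7 ± 16.2 FPKM against 2.29 ± 0.540 in AdCre (SD, n = 4 each), 7.28-fold higher. The groups did not overlap, and the log2 difference was 1.85 (SE 0.69), with an unadjusted limma p of 0.0269, an adjusted p of 0.419 and an exact permutation p of 0.0286, the smallest possible. Each gene without overlap gets this permutation p, and 2.78% of all genes were higher without overlap in AdKO. By its adjusted p, the Cd5l difference did not pass the threshold over all genes. It was 1.28 without AdKO replicate 4 and 1.51 without AdKO replicate 1. Both libraries also had the highest general macrophage level of their group. On the log2 scale, centred on the mean of the 16 libraries, the mean of the 15 general macrophage markers was 0.64 and 0.37 in AdKO replicates 1 and 4, and -0.53 and -0.52 in replicates 2 and 3. Adipocyte markers moved the other way, at -0.26 and -0.41 against 0.74 and 0.86. Mesothelial markers were at -0.11 and 0.81 against 0.62 and 0.33, and monocyte markers lay between -0.20 and 0.69 in AdKO. The part of these levels in the Cd5l difference was not tested. As a percentage of Mrc1 FPKM in the same library, Cd5l was at 16.1 and 34.4 in AdKO replicates 1 and 4, 6.55 and 5.78 in replicates 2 and 3, and 2.04 to 6.24 in AdCre. Bulk RNA of this kind cannot tell fewer cells of a type from less RNA per cell.

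**Figure D2:**
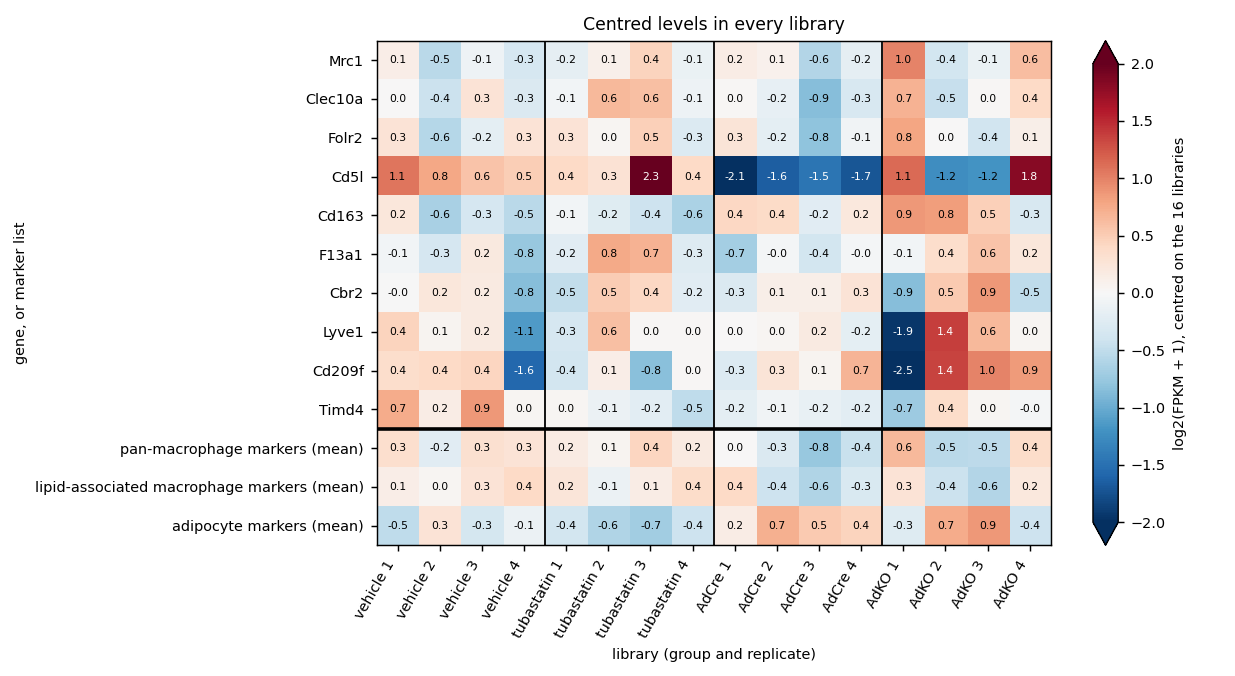
Level of each of the 10 genes, and below the line the mean level of the general (pan-) macrophage, lipid-associated macrophage and adipocyte marker lists (rows), in each of the 16 libraries (columns), as log2(FPKM + 1) minus the mean of each gene over the 16 libraries. AdKO replicate 1 is the highest library for Cd163, Mrc1, Folr2 and Clec10a and the lowest for Lyve1, Timd4, Cd209f and Cbr2; Cd5l is low in the 4 AdCre libraries.

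In the drug comparison as a whole, 0 of the 10 resident macrophage genes passed the limma test at an adjusted p under 0.05, and neither did any other gene (0.0% of 13271). Before adjustment, 1 of the 10 had p under 0.05, as did 12.0% of the table (1597 genes). That gene was Timd4, which had to be high in vehicle to be tested at all, so nothing is read from this count. Limma voom on the recovered reads also called 0 of the 10. Timd4 was also the 1 gene whose groups did not overlap, lower with tubastatin, against 3.62% of all genes lower and 3.53% higher without overlap. By sign, 7 of the 10 were higher and 3 lower with tubastatin, with a median log2 difference of 0.17 against -0.01 over all genes tested. Without vehicle replicate 4 this median was -0.01, and over the other libraries left out in turn it reached at most 0.31.

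In the knockout comparison 0 of the 10 passed, and again no other gene did (0.0% of the 13271). Before adjustment, 2 of the 10, Cd5l and F13a1, both higher in AdKO, had p under 0.05, as did 10.9% of the table (1452 genes). Limma voom called 0 of the 10, with 1 at an unadjusted p under 0.05 (F13a1, log2 difference 0.57). Cd5l was the 1 gene higher without overlap, against 2.78% of all genes higher and 3.7% lower without overlap. By sign 8 of the 10 were higher and 2 lower, with a median log2 difference of 0.30 against 0.00 over all genes. The median was 0.13 without AdCre replicate 3, the library lowest for Mrc1, Folr2 and Clec10a, and 0.14 without AdCre replicates 2 and 3, where 9 of the 10 were higher and 1 had an unadjusted p under 0.05.

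The difference between the drug effect and the knockout effect was tested over the 16 libraries. No gene of the table passed (0.0%), and 9.03% had p under 0.05 before adjustment. Of the 10 genes, only Timd4 did so before adjustment, with a difference of the effects of -0.71 on the log2 scale (SE 0.32, limma adjusted p = 0.760 with no filter on low values). For Cd5l the difference of the effects was -1.72 (SE 0.87, adjusted p = 0.588). The other 8 lay between -0.28 and 0.22. The SE was widest for Cd209f (0.98), Cd5l and Lyve1 (0.76), so that sizeable differences between the effects were not detectable in these genes.

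**Figure D3:**
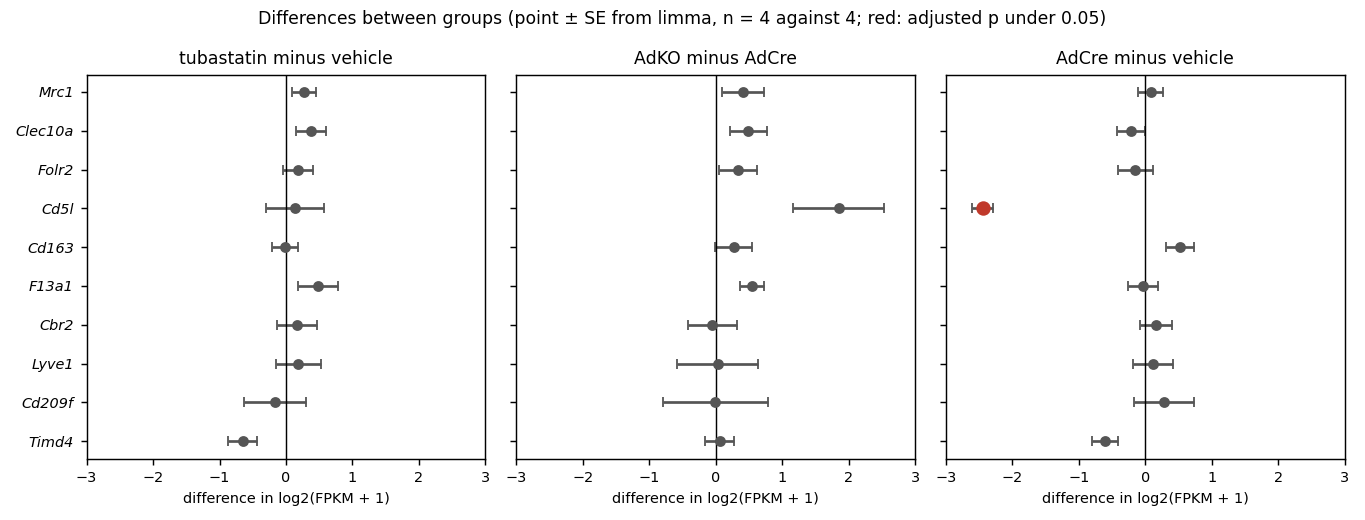
Difference in log2(FPKM + 1) of each of the 10 genes with its standard error (horizontal axis) for tubastatin minus vehicle, AdKO minus AdCre and AdCre minus vehicle, 4 libraries per group. The marker drawn in red is the 1 difference called by limma over all genes, Cd5l in AdCre against vehicle at -2.45; the widest error bars are those of Cd209f, Cd5l and Lyve1 in AdKO against AdCre.

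The control groups of both cohorts were also set side by side. They differ in labelled age, labelled genotype and cohort, which cannot be told apart, and they are the same vehicle and AdCre libraries that serve in the comparisons above. Of the whole table limma called 8.85%, with 4.26% lower and 4.6% higher in AdCre. Leaving out any library but AdCre replicate 1 moved the number of genes called by over 1.5 times, from 1175 to between 49 (without AdCre replicate 4) and 2660 (without vehicle replicate 2). Of the 10 resident macrophage genes, 1 was called: Cd5l was lower in AdCre, at 2.29 ± 0.540 FPKM against 17.0 ± 3.39 in vehicle (SD, n = 4 each), a ratio of 0.135. Its log2 difference was -2.45 (SE 0.16, limma adjusted p = 0.0007), it stayed called in each alternative run, with differences of -2.88 to -2.33 and adjusted p-values of at most 0.0305, and the groups did not overlap (8.76% of all genes were lower and 8.92% higher without overlap). Before adjustment, 3 of the 10 (Cd5l, Timd4 and Cd163) had p under 0.05, against 31.5% of the table, with the same limit for Timd4.

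Timd4 was the other gene that did not overlap between these controls, at 0.744 ± 0.0789 FPKM in AdCre against 1.74 ± 0.776 in vehicle (SD, n = 4 each). Its log2 difference of -0.61 (SE 0.19) had a limma adjusted p of 0.199 with no filter on low values, the fit that does not depend on the high level in vehicle. For Cd5l the order of the group means was AdCre, AdKO, vehicle and tubastatin, and AdKO overlapped with vehicle and tubastatin. For Timd4 it was tubastatin, AdCre, AdKO and vehicle, of which the first 3 overlapped with each other and AdKO with vehicle too. Cd163 was 1.45-fold higher in AdCre (log2 difference 0.52, SE 0.21, adjusted p = 0.138), with overlap. The median over the 10 genes was 0.02, with 5 higher and 5 lower, against 0.00 over all genes.

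General macrophage markers were set beside the 10 genes. In AdCre against vehicle, 15 of 15 were lower by sign and 2 were called, Mpeg1 (163 ± 24.4 against 334 ± 53.6 FPKM) and Mertk (14.7 ± 4.50 against 33.4 ± 4.94 FPKM), with a median log2 difference of -0.49. Of 8 adipocyte markers, 8 were higher by sign and 2 called, Retn and Pparg. Over all genes, 4.26% were called lower and 4.6% higher. When each gene was expressed as a percentage of the geometric mean FPKM of the 15 markers in its own library, Mrc1 stood at 26.5 to 34.8% in vehicle, 31.6 to 41.7% in tubastatin, 44.6 to 52.2% in AdCre and 45.4 to 53.1% in AdKO. Libraries of the second cohort were thus above those of the first without overlap. The FPKM of Mrc1 itself differed little between the controls, at group means of 64.7 in AdCre and 61.0 in vehicle. The geometric mean of the markers was lower in AdCre, at 135.7 FPKM against 197.9 in vehicle. How many of all genes would separate on this percentage was not counted. Cd163 stood at 3.84 to 6.56% in vehicle and 3.75 to 5.95% in tubastatin but 9.44 to 11.3% in AdCre, again without overlap, and at 4.19 to 18.8% in AdKO. Cd5l was lower in AdCre, at 6.72 to 11.7% in vehicle and 0.910 to 2.86% in AdCre, while it stood at 6.72 to 22.6% with tubastatin and 2.98 to 16.4% in AdKO, both of which overlapped with vehicle. These percentages are a description and were not tested.

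**Figure D4:**
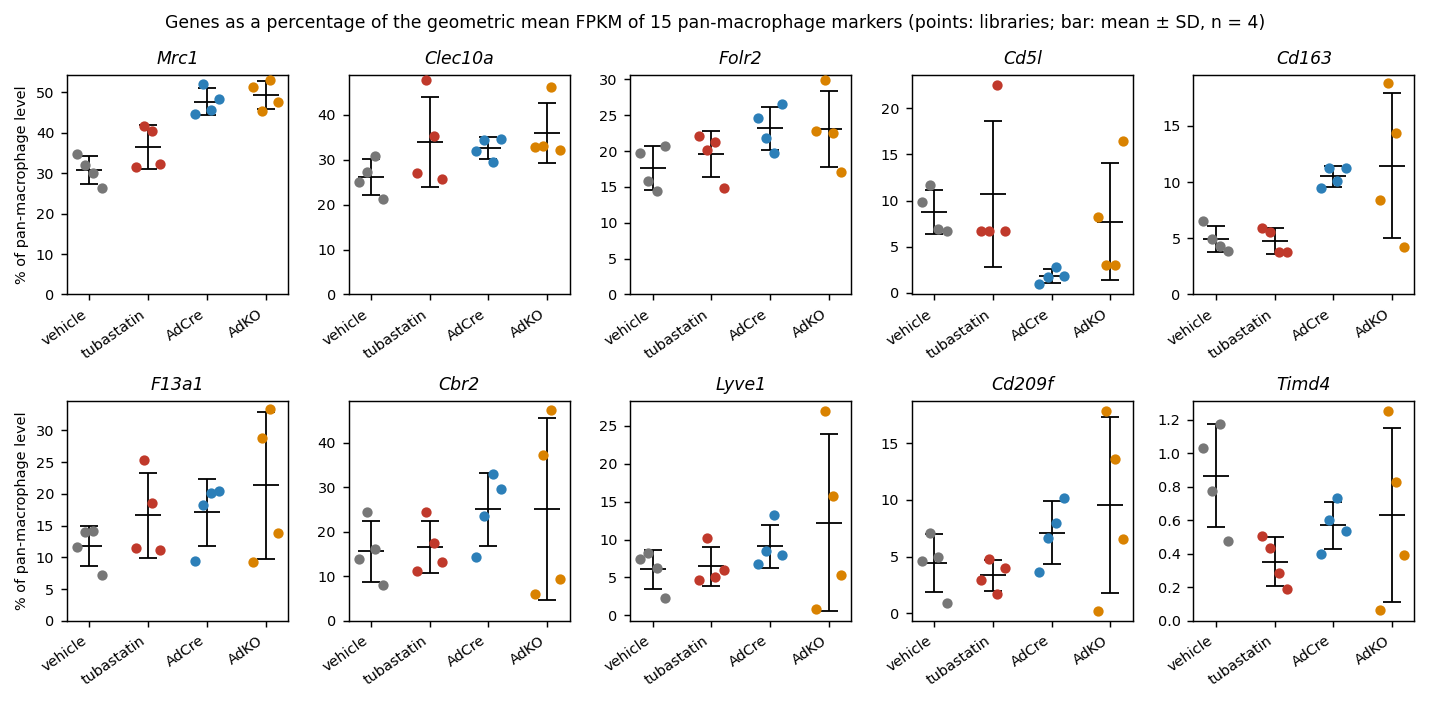
FPKM of each of the 10 genes as a percentage of the geometric mean FPKM of the 15 general macrophage markers in the same library (vertical axis, linear, its own range per panel); points are libraries by group and bars the mean ± SD of 4. Mrc1 lies at 26.5 to 41.7% in the vehicle and tubastatin libraries and at 44.6 to 53.1% in the AdCre and AdKO libraries.

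The 10 genes did not move as 1 block from library to library. After centring on group means, the Pearson r of 45 pairs over the 16 libraries ran from -0.64 to 0.91; libraries share depth, tissue composition and handling, so these are descriptions. Mrc1, Clec10a, Folr2 and Cd5l varied together, with r of 0.90 for Mrc1 with Clec10a (rho 0.83), 0.75 for Mrc1 with Folr2 (rho 0.75) and 0.72 for Mrc1 with Cd5l (rho 0.66). Lyve1, Cd209f, Timd4, Cbr2 and F13a1 made another group, with r of 0.91 for Lyve1 with Cd209f (rho 0.72), 0.79 for Lyve1 with Timd4 (rho 0.71), 0.79 for Lyve1 with Cbr2 (rho 0.76) and 0.79 for F13a1 with Cbr2 (rho 0.76). Other pairs within these sets were weaker, down to 0.40 for Folr2 with Cd5l (rho 0.31) and 0.47 for Cd209f with F13a1 (rho 0.43). Without the 2 libraries farthest from the median, these were 0.39 and 0.23, and Timd4 with Cbr2 fell from 0.56 to 0.21. The lowest r was -0.64, between Folr2 and Cd209f (rho -0.57). Cd163 had no r above 0.50 with any other of the 10 over the 16 libraries.

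AdKO replicate 1 carried part of this split, since it was the highest of the 16 libraries for 4 genes and the lowest for another 4. In it Cd209f was at 0.395% of Mrc1 and Lyve1 at 1.64% of Mrc1, against 39.4% and 59.4% in AdKO replicate 2. Without AdKO replicate 1, r was 0.73 for Lyve1 with Cd209f, 0.60 for Lyve1 with Timd4, 0.88 for Mrc1 with Clec10a and -0.44 for Folr2 with Cd209f. Other negative values shrank more without that library, from -0.54 to -0.16 for Mrc1 with Lyve1, from -0.54 to -0.13 for Mrc1 with Cd209f, from -0.56 to -0.27 for Lyve1 with Folr2 and from -0.36 to -0.01 for Lyve1 with Clec10a. For Cd163, r without it was 0.65 with Timd4 and 0.52 with Lyve1. For F13a1, r without it was 0.54 with Lyve1 of its own set and 0.54 with Clec10a of the other, so the split was not clean. The sets also differed in sign against the general macrophage level. Over the 16 libraries r with the mean level of the 15 general markers was 0.93 for Mrc1 (rho 0.91), 0.80 for Folr2 (rho 0.74), 0.77 for Clec10a (rho 0.69) and 0.68 for Cd5l (rho 0.65). It was -0.70 for Cbr2 (rho -0.62), -0.67 for Lyve1 (rho -0.53) and -0.63 for Cd209f (rho -0.49), and weaker for Timd4 at -0.36 (rho -0.29) and F13a1 at -0.22 (rho -0.15). Without the 2 libraries farthest from the median, these were 0.88, 0.70, 0.66 and 0.66, and -0.62, -0.31, -0.48, -0.03 and -0.24 in the same order. Lyve1 and Cd209f had r of 0.68 (rho 0.41) and 0.85 (rho 0.68) with the mean level of the 3 tested lymphatic endothelial markers. Without the 2 libraries farthest from the median these were 0.53 and 0.63. With 20 other genes of resident macrophages, r was 0.59 (rho 0.51) and 0.64 (rho 0.56), and 0.67 and 0.32 without those libraries. The summed level of 6 lymphatic markers, most of it Pdpn, which other cells make too, was 29.97 to 43.7 FPKM in vehicle, 40.3 to 65.2 in tubastatin, 29.0 to 52.0 in AdCre and 36.2 to 73.5 in AdKO. Whether lymphatic vessels had a part in the levels of Lyve1 and Cd209f was not tested.

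**Figure D5:**
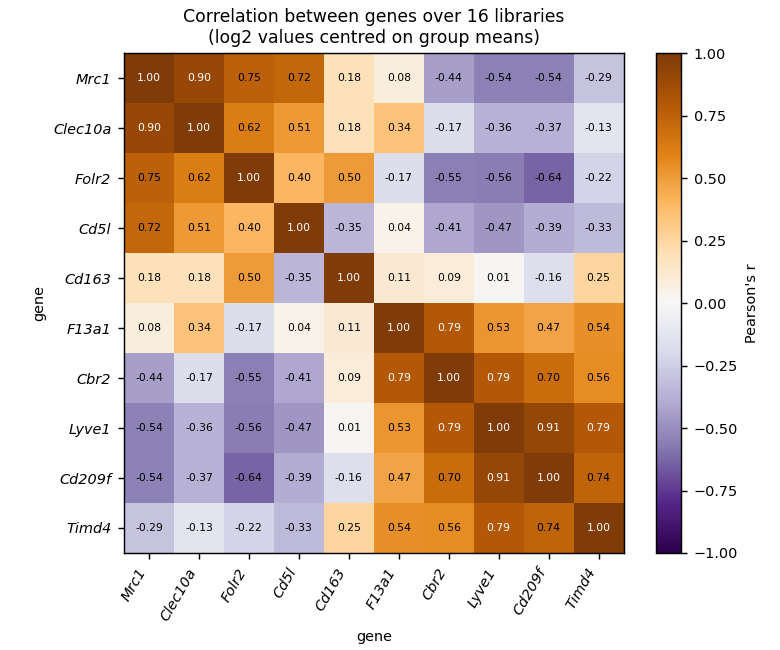
Pearson r between each pair of the 10 genes over the 16 libraries, from log2(FPKM + 1) centred on group means. Mrc1, Clec10a, Folr2 and Cd5l form 1 block of positive values and Lyve1, Cd209f, Timd4, Cbr2 and F13a1 another; the highest value is 0.91 and the lowest -0.64.

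The genes most like the mean level of the 10 over the 16 libraries, by Pearson r after centring on group means, were Ms4a8a (0.93), Sec61a1 (0.89), Cntrob (0.85), Ptgs1 (0.84), Me2 (0.82), P2ry12 (0.82), Anxa8 (0.81), Trim30d (0.79), Gda (0.79) and Rasgrp4 (0.78). Ms4a8a, a membrane protein of the MS4A family, stood at 1.13 FPKM in vehicle replicate 4, the lowest of its group and also the library with the lowest mean level of the 10. It stood at 2.01 to 4.40 FPKM in the other 3 vehicle libraries. These genes were picked from all tested genes for their r over the same libraries. High values of r, and the low level of Ms4a8a in vehicle replicate 4, therefore follow from the picking and are no separate result.

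Another 20 genes of resident macrophages were counted beside the 10. Of all genes, 3.53% were higher without overlap with tubastatin and 2.78% in AdKO. With tubastatin 13 were higher and 7 lower by sign and 0 were called, with a median log2 difference of 0.03. Fcrls, a receptor-like protein of tissue macrophages, had the smallest p, at 19.3 ± 5.29 FPKM against 9.15 ± 2.34 without overlap (SD, n = 4 each, log2 difference 0.99, SE 0.25, limma adjusted p = 0.276). In AdKO 18 were higher and 2 lower, 0 called, with a median of 0.27. Maf, a transcription factor of resident macrophages, stood at 27.6 ± 3.68 FPKM in AdKO against 19.0 ± 2.08 in AdCre without overlap (log2 difference 0.52, SE 0.11, limma adjusted p = 0.251). In AdCre against vehicle 9 were higher and 11 lower, with 2 called higher and 3 called lower, against 4.6% and 4.26% of all genes. The number called over all genes ran from 49 to 2660 with 1 library left out. Mgl2, a lectin close to Clec10a, and Fcrls were called higher, with log2 differences of 1.05 and 0.79. Slc40a1 (the iron exporter ferroportin), Gas6 (a bridge between dying cells and the receptors Axl and Mertk) and Selenop (a selenium carrier) were called lower, with -1.09, -0.36 and -0.69.

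Of 10 genes of haemoglobin clearance and iron handling, the tasks in which Cd163 takes part, 2 were higher and 8 lower with tubastatin (median log2 difference -0.12) and 7 higher and 3 lower in AdKO (median 0.10), with 0 called in either. In AdCre against vehicle 2 were higher and 8 lower (median -0.53), and 5 were called, against 8.85% of all genes. Hp, which codes for haptoglobin, the partner of haemoglobin bound by Cd163, was called higher, at 2969 ± 790 FPKM against 1293 ± 463. Blvrb, Slc40a1, Slc11a1 and Fth1 were called lower (log2 differences -0.60, -1.09, -0.83 and -0.51). Of 11 tested efferocytosis genes, whose products engulf dying cells as Timd4 does, 5 were higher with tubastatin (median -0.07) and 10 in AdKO (median 0.19), with 0 called. Tyro3, a receptor tyrosine kinase for Gas6, stood at 1.68 ± 0.469 FPKM with tubastatin against 0.713 ± 0.103 in vehicle without overlap (log2 difference 0.63, SE 0.13, limma adjusted p = 0.245). With means of 0.738 FPKM in AdCre and 0.987 in AdKO, Tyro3 reached the filter only through tubastatin. It was under 1 FPKM in 10 of 16 libraries, so nothing is read from its p or its lack of overlap. In AdCre against vehicle 9 of the 11 were lower (median -0.36), and Mertk, Gas6 and Axl were called lower, against 4.26% of all genes.

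The other macrophage lists were counted for what moved beside the 10. Of all genes, 3.53% were higher without overlap with tubastatin and 2.78% in AdKO, and 8.85% were called in AdCre against vehicle. General macrophage markers were higher by sign in 9 of 15 with tubastatin (median log2 difference 0.04) and in 15 of 15 in AdKO (median 0.37), with 0 called. Of 12 markers of lipid-associated macrophages, 1 was higher and 11 were lower with tubastatin (median -0.23). The 1 that was higher was Spp1, osteopontin, at 469 ± 386 FPKM against 55.2 ± 4.61 without overlap (log2 difference 2.59, SE 0.61, limma adjusted p = 0.269). In AdKO 7 of the 12 were higher (median 0.04), and in AdCre against vehicle 10 were lower (median -0.49), with 0 called in either. Of 9 tested monocyte markers, 5 were higher with tubastatin (median 0.10), 9 in AdKO (median 0.48) and 3 in AdCre against vehicle (median -0.55). Among these, Plac8 in AdKO did not overlap (log2 difference 0.65, adjusted p = 0.322), and F10 was called lower in AdCre against vehicle (log2 difference -0.56). Of 5 tested dendritic cell markers, 3 were higher with tubastatin, 4 in AdKO and 2 in AdCre against vehicle, with 0 called.

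Lists of cells that could add to the 10 genes were counted in the same way, and the same shares of all genes stand beside them. Of 3 tested lymphatic endothelial markers, 1 was higher with tubastatin (Pdpn, log2 difference 0.50, adjusted p = 0.378), 1 in AdKO and 2 in AdCre against vehicle, with 0 called. Of 4 tested peritoneal macrophage markers, 2 were higher and 2 lower with tubastatin, and 3 higher and 1 lower in AdKO, with 0 called. In AdKO, Prg4 and Gata6 had log2 differences of 0.79 and 0.75 without overlap (adjusted p = 0.214 and 0.300), against 0.07 for Alox15 and -0.21 for Icam2. With tubastatin the values were 0.60, 0.47, -0.64 and -0.10 in the same order. Between AdCre and vehicle 1 was higher and 3 lower in AdCre, and Prg4 was called lower (-0.71). Of 6 mesothelial markers, cells that express Gata6 too, 6 were higher in AdKO (median log2 difference 0.92, 0 called), with summed levels of 83.9 to 173 FPKM against 47.6 to 90.5 in AdCre. Of 2 tested platelet markers, 0 were called in any comparison, and both were lower by sign with tubastatin and in AdCre against vehicle. Of 8 adipocyte markers, 8 were lower by sign with tubastatin and 7 in AdKO, with 0 called. The 1 tested epididymal epithelial marker, Epcam, was not called. Of 8 tested growth and polarising signals of macrophages (Csf1, Il34, Il10 and others), 4 were higher with tubastatin, 7 in AdKO and 1 in AdCre against vehicle, with 0 called. The part of these cells in the levels of the 10 genes was not tested.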

How the data were processed

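The authors deposited 1 table of FPKM values for 16 libraries, and 0 of its columns had no sample. Aligner, counting tool, strand, library kit and genome build are, in the sources used here, not given. Gene lengths and positions come from GENCODE for GRCm38. With them, 96.3 to 96.5% of the values above 0 were whole reads within 0.01 read, which gave the depths, and 12622 of 13271 tested genes (95.1%), the 10 described included, were whole in 16 libraries.

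Genes with a mean of at least 1 FPKM entered limma-trend as log2(FPKM + 1), in version 3.58.1 of limma under R 4.3.3, with Benjamini-Hochberg adjustment over the whole table at 0.05. Low genes change less on that scale than in FPKM. The fits took the 8 libraries of the groups compared, or 16 for the difference of effects. Single genes were also tested by exact permutation, two-sided, with 70 relabelings. The fit was tested on simulated reads. Summaries used Python 3.11.15 with pandas 2.3.3. The 10 genes and the 16 other lists were chosen with earlier results of these data known, so lists are described by counts and medians with no test. Up to 4 genes per list and comparison are named, smallest p first, except that in AdCre against vehicle each called gene of a list is named. Hdac6, the Cd209 relatives and the 10 genes most like the listed ones by r are named besides. Single values quoted to describe cell markers or to set a limit beside a named gene were chosen after they were seen.

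Alternatives were pseudocounts of 0.1 and 0.5, no filter, a mean of at least 5 FPKM, median-of-ratios scaling, quantile normalization, array weights, no trend, 1 spread from 16 libraries, the replicate number as a block, limma voom on recovered reads and each library left out; leaving out AdCre replicates 2 and 3 together was added after seeing the data. Promoter sequences are from RefSeq (GRCm38.p6).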

Additional observations from a re-analysis of the deposited data

Results flagged for a closer look

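Of 40 groups of 4 values (10 genes in 4 groups), 2 held a library whose gap to the nearest other, as a share of the range of its group, was above Dixon's critical value; chance gives about 1 in 20. Cd209f stood at 1.92 FPKM in vehicle replicate 4, while the other vehicle libraries lay between 10.2 and 10.8 FPKM. Cd5l stood at 53.2 FPKM in tubastatin replicate 3, while the other tubastatin libraries lay between 12.2 and 13.2 FPKM.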

How the results depend on the processing

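Of the values of single genes among the 10 under alternatives that leave out no single library, 435 kept their direction and their side of the threshold, 20 turned in sign and 1 passed newly; with each library left out in turn, 347 were kept, 52 turned and 1 passed newly (Timd4 in AdCre against vehicle both times, a gene that reached the filter only through vehicle). None of those that turned had passed limma in any setting.

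The number of genes called was 3 for the drug, 2 for the knockout, 58 for AdCre against vehicle and 1 for the difference of the effects with no filter on low values, which tests more genes. With 1 spread from 16 libraries it was 8 and 43 for drug and knockout. With array weights it was 3545 for AdCre against vehicle and 6 for the difference. Without AdCre replicates 2 and 3, AdCre against vehicle had 79 calls and the knockout median of the 10 genes was 0.14. Leaving out each library gave 0 to 2 calls for the drug, 0 to 1 for the knockout, 0 to 5 for the difference and 49 to 2660 for AdCre against vehicle (78 without vehicle replicate 1, 2660 without 2, 99 without 3, 176 without 4, and 176, 190 and 49 without AdCre replicates 2, 3 and 4). The medians of the 10 genes ran from -0.01 to 0.31 for the drug, 0.13 to 0.38 for the knockout, -0.21 to 0.11 for AdCre against vehicle and -0.24 to -0.02 for the difference.

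Same-numbered libraries had r of -0.10 to 0.02 (drug) and -0.23 to 0.33 (knockout) between their deviations from group means, and 0 and 2 of 4 correlated best with their own number, so the numbers were not taken as pairs. With the replicate block, AdCre against vehicle had 537 calls, the drug, the knockout and the difference 0, and no call among the 10 genes changed.

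Log2 differences that turned in sign were all uncalled. For the drug this was Cd163 with quantile normalization (0.00035). For the knockout these were Lyve1 with a pseudocount of 0.1 (-0.0329), of 0.5 (-0.00183) and voom (-0.0257), Timd4 with 0.1 (-0.0313) and voom (-0.0727), Cd209f with quantile normalization (0.0156) and array weights (0.47), and Cbr2 with array weights (0.23) and without AdCre replicates 2 and 3 (0.0144). For AdCre against vehicle these were Folr2 without AdCre replicates 2 and 3 (0.14) and F13a1 with array weights (0.0263). For the difference of the effects these were Mrc1 (0.12), Lyve1 (-0.48), Cbr2 (-0.0304) and Clec10a (0.11) with array weights, Folr2 (0.14) and Clec10a (0.0709) without AdCre replicates 2 and 3, and Cd209f with 0.1 (0.0875) and voom (0.0586).

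With 1 library left out, sign-changing drug values ran from -0.12 to 0.17 (Cd163), -0.15 to 0.37 (Lyve1), -0.66 to 0.0276 (Cd209f), -0.0805 to 0.35 (Cbr2) and -0.36 to 0.32 (Cd5l). Knockout values ran from -0.42 to 0.69 (Lyve1), -0.0905 to 0.27 (Timd4), -0.39 to 0.89 (Cd209f) and -0.34 to 0.24 (Cbr2). AdCre against vehicle ran from -0.0316 to 0.23 (Mrc1), -0.22 to 0.30 (Lyve1), -0.32 to 0.0505 (Folr2), -0.21 to 0.46 (Cd209f), -0.21 to 0.11 (F13a1) and -0.0802 to 0.28 (Cbr2). The difference ran from -0.36 to 0.10 (Mrc1), -0.50 to 0.61 (Lyve1), -0.33 to 0.0674 (Folr2), -1.05 to 0.23 (Cd209f), -0.25 to 0.10 (F13a1), -0.072 to 0.50 (Cbr2) and -0.32 to 0.0704 (Clec10a). Among values that kept their sign, knockout differences ran from 0.13 to 0.53 (Cd163), 0.175 to 0.63 (Mrc1), 0.113 to 0.50 (Folr2) and 0.311 to 0.70 (Clec10a), and drug differences from 0.144 to 0.385 (Mrc1) and 0.00551 to 0.314 (Folr2). The cause of these shifts was not tested. A mean of at least 5 FPKM left Timd4 out. Depth limits Timd4 most, at 7 to 121 reads.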

Other observations

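Beside the 10 genes, 10 tested genes of alternative activation, the program that interleukin-4 and interleukin-13 drive, were counted. With tubastatin 7 were higher and 3 lower by sign, with 0 called and a median log2 difference of 0.33 against -0.01 over all genes. Of all genes, 3.53% were higher and 3.62% lower without overlap with tubastatin, and 2.78% higher without overlap in AdKO. In AdCre against vehicle, 8.85% of all genes were called. Il4ra, a receptor chain for both interleukins, stood at 28.0 ± 8.90 FPKM against 14.3 ± 2.53 in vehicle (log2 difference 0.89, SE 0.21, limma adjusted p = 0.269), without overlap (SD, n = 4 each). The log2 difference of Il13ra1, a partner chain, was 0.47 (adjusted p = 0.381), also without overlap. Stat6 went the other way without overlap, at 45.6 to 47.4 FPKM with tubastatin against 48.8 to 54.8 in vehicle. In AdKO 9 were higher and 1 lower (median 0.36), again with 0 called, and Il13ra1 stood at 11.2 ± 2.89 against 7.64 ± 0.823 FPKM in AdCre without overlap. In AdCre against vehicle, Retnla, which codes for a secreted protein of alternatively activated macrophages, was called higher at 225 ± 80.8 against 70.1 ± 33.5 FPKM, and Irf4, a transcription factor of that program, was called lower at 2.997 ± 0.791 against 6.85 ± 2.65.

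Of 8 tested inflammatory genes, 5 were higher with tubastatin and 6 in AdKO, with 0 called. Il1b stood at 1.72 ± 0.870 FPKM with tubastatin against 0.456 ± 0.214 (log2 difference 0.86, limma adjusted p = 0.298), Tlr2 at 14.6 ± 1.47 against 10.9 ± 1.66, and Nos2 at 0.831 ± 0.157 against 1.57 ± 0.527, without overlap in these 3 genes. Over all genes, 3.53% were higher and 3.62% lower without overlap. Il1b was under 1 FPKM in 10 of 16 libraries. With means of 0.770 FPKM in AdCre and 1.97 in AdKO, it reached the filter only through tubastatin and AdKO. Nothing is therefore read from its p or its lack of overlap. In AdCre against vehicle, the chemokine Ccl5 was called lower, at 9.06 ± 2.78 against 25.2 ± 11.3 FPKM, as were 4.26% of all genes.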
